A study of Mus musculus with 9 samples.

Results

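The p53 pathway was examined in the cerebral cortex of mouse embryos that differed in Sfpq, the gene of a nuclear RNA-binding protein that takes part in transcription and RNA processing. The members were 32 listed genes, namely p53 itself, its inhibitors and cofactors, and known target genes, and each was taken from the probe sets annotated to that gene alone. Of the 32, 31 had such probe sets (506 in all), out of 22296 genes named on the array, and 30 had the 3 probe sets above the limit for dim signal that a gene level required. No probe set carried the symbol Trp53, the mouse p53 gene, alone, so p53 mRNA was not analysed here. Gdf15, a secreted stress cytokine, had 2 probe sets above the limit and was not tested. Its 2 kept probe sets were between 6.10 and 7.13 and between 7.03 and 7.96 in controls, and between 6.61 and 6.98 and between 7.51 and 7.96 in Sfpq-/- cortex, so both overlapped.

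Whole-transcript exon arrays were hybridised with total RNA of cortex dissected at E13.5, 1 array per sample, in 3 groups of 3: wild-type controls, Sfpq+/- (heterozygous knock-out) and Sfpq-/- (homozygous knock-out). The labels give no strain, sex, deleted exon or Cre driver. They also do not tell whether embryos were littermates, so every p-value reflects only how far these 9 samples scatter. As a check of the labels, the mean of the 12 Sfpq probe sets brightest in controls (control mean above 10) was between 12.07 and 12.12 on the log2 scale in controls, between 11.87 and 12.08 in Sfpq+/- and between 9.99 and 10.31 in Sfpq-/- cortex. The level over all 23 probe sets fell by 1.15 in Sfpq-/- (adjusted p = 0.000787). It therefore separates the Sfpq-/- arrays but does not check the Sfpq+/- label. The 9 measured markers of cortical identity and neurogenesis had levels from 8.84 for Emx1 to 11.91 for Lhx2 in control cortex. Gene levels used only probe sets above the limit for dim signal (5.64), so lying above it is no check of the tissue. The median signal was between 5.648 and 5.697 on all arrays. Xist, the transcript that silences an X chromosome, reached 11.79 and 11.65 in controls 1 and 2 and 11.48 in Sfpq-/- 1. The remaining 6 arrays, with all Sfpq+/- ones among them, had Xist at 4.90 to 5.87.

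The p53 protein is a transcription factor that is held low by the ubiquitin ligase Mdm2 and its partner Mdm4. DNA damage and other stresses release it, and it then binds paired copies of a short half-site near its target genes and raises their transcription. The targets stop the cell cycle, promote cell death, protect against oxidative and metabolic stress, and repair DNA, and Mdm2 is itself a target, which closes a feedback loop. In the embryonic cortex, neural progenitors are known to be sensitive to p53 activity.

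The p53 half-site is the short sequence that p53 binds in paired copies, and 6 promoters are shown for it. They are those of the 5 members with a pair of half-sites, and that of Mdm2, the feedback gene, with a single one. RefSeq (GRCm38.p6) gave 34 promoters, each from 250 bases before to 50 bases after a start, for 25 of the 32 members. Tnfrsf10b, Trp53inp1, Zmat3, Perp, Rrm2b, Xpc and Ddb2 had none in the table. The p53 half-site, a palindromic consensus of 10 bases that reads the same on both strands, was searched without mismatch. A pair was defined as 2 half-sites up to 13 bases apart that kept their central C and G and had at most 2 mismatches in all, and pairs could overlap. The 250 bases before the start are printed 5′ to 3′ on the gene's strand, and capitals mark exact half-sites and the half-sites of pairs.
Cdkn1a, chr17:29090729-29090978, plus strand: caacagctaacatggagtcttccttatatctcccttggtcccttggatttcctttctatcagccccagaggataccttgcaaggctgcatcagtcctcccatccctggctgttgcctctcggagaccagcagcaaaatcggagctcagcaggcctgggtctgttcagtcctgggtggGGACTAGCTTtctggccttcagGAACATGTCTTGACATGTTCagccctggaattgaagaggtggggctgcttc
Ccng1, chr11:40755287-40755536, minus strand: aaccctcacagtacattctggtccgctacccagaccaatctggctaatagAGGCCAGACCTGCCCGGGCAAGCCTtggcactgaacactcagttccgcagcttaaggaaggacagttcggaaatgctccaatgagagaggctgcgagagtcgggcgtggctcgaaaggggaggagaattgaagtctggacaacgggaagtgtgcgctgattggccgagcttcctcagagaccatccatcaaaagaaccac
Sesn1, chr10:41887189-41887438, plus strand: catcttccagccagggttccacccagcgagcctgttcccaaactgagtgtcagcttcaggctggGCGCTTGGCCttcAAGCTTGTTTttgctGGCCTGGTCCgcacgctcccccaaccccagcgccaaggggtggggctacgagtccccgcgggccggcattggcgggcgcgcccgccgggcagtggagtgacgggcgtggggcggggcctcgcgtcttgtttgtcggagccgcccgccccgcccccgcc
Gadd45a, chr6:67037408-67037657, minus strand: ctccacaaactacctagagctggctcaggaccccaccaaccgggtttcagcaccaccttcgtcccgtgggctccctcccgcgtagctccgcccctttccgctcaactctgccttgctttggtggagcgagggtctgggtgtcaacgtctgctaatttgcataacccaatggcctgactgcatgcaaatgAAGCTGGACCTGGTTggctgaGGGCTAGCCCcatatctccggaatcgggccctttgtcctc
Pml, chr9:58249787-58250036, minus strand: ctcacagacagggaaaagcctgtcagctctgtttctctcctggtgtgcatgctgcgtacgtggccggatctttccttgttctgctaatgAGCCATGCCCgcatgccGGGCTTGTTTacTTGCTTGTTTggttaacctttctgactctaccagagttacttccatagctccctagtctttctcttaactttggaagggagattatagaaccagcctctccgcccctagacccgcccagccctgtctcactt
Mdm2, chr10:117710759-117711008, minus strand: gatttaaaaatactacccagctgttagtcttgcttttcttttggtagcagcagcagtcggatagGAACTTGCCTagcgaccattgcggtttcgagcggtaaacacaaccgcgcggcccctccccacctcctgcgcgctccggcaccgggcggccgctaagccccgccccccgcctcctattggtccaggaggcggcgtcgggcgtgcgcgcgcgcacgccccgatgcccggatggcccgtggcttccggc

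Among 32851 promoters of the same length, 8.36% held an exact half-site and 4.09% held a pair. Of the 34 member promoters, 12 held an exact half-site and 5 held a pair. Counted by gene, 11 of 25 members had an exact half-site and 5 had a pair in at least 1 promoter. The members were listed as p53 pathway genes, so this is a description of the list. The upstream start of Cdkn1a had a pair at position -51, counted from the start at 0, with no spacer and 1 mismatch, and a second at -73 with none and a spacer of 12. Ccng1 had a pair at -195 with no spacer and 1 mismatch. The pairs of Sesn1, in the downstream of its promoters, and of Gadd45a had 2 mismatches each, and the pair of Pml at -161 had 1. Mdm2 held a single exact half-site at -186. Of the 9 members that rose in Sfpq-/- cortex, as described next, and had a promoter in the table, 4 held a pair, and of the 13 that did not pass, Pml did. An exact half-site was held by 5 of the 9 and by 5 of the 13. No match says only that these letters are not in this window.

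In Sfpq-/- against control cortex, 10 of the 30 tested members rose, 1 fell and 19 did not pass limma's test with Benjamini-Hochberg adjustment over all 16854 genes. The rises ranged from 1.2-fold for Aen to 2.58-fold for the death receptor gene Eda2r. Over all genes, 5.98% were called higher and 6.12% lower in this comparison. The median log2 change of the members was 0.12, against 0.03 over all genes. The list was drawn up with earlier results of these data known, so its count does not by itself set the pathway apart. The rises fell in 3 of the 5 roles: growth control, cell death and stress metabolism. None of the 4 tested inhibitors and cofactors of p53 and none of the 4 DNA repair genes passed. In cortex as a bulk tissue, more cells with a transcript and more transcript per cell cannot be told apart.

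**Figure D1:**
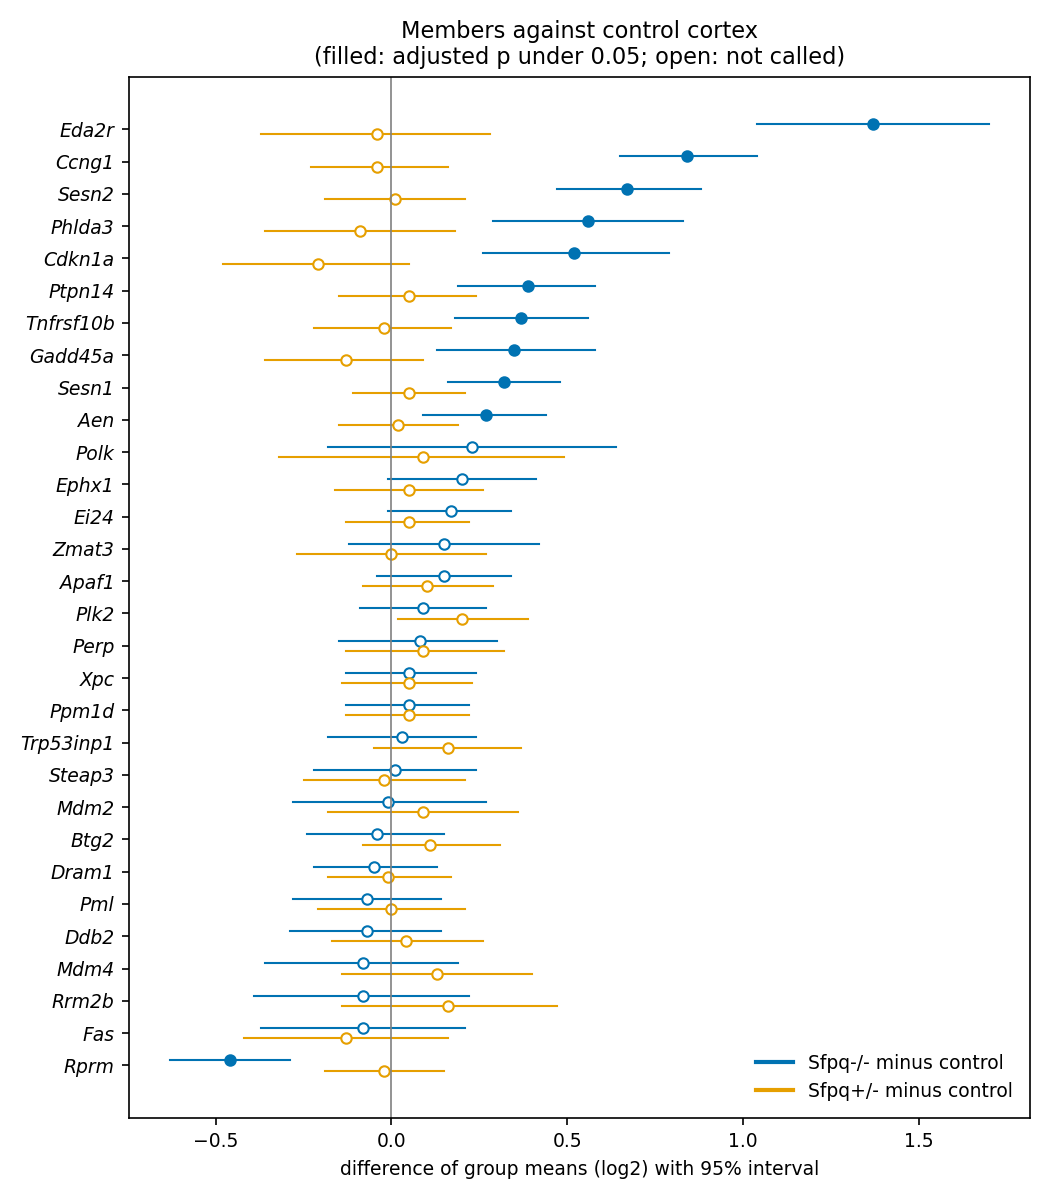
Difference of group means on the log2 scale (x axis) for the 30 tested members (y axis), with 95% intervals from limma, for Sfpq-/- minus control (blue) and Sfpq+/- minus control (orange). Filled points passed an adjusted p of 0.05, and the 10 higher members and Rprm are the only filled ones, all in Sfpq-/-.

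Among 7 genes of growth arrest and growth control, 4 rose and 1 fell. Ccng1 encodes cyclin G1, a p53 target that acts back on the Mdm2 pathway. Its level was 10.75, 10.92 and 10.78 in controls 1 to 3, 10.66, 10.85 and 10.82 in Sfpq+/- and 11.78, 11.55 and 11.64 in Sfpq-/- cortex. All 3 Sfpq-/- arrays lay above all other arrays, by more than the spread within any group. The difference from controls was 0.84 on the log2 scale (SE 0.09, 1.79-fold, adjusted p = 0.000103). Cdkn1a encodes p21, the inhibitor of cyclin-dependent kinases through which p53 arrests the cell cycle. It was at 9.64, 9.74 and 9.84 in controls, 9.36, 9.76 and 9.46 in Sfpq+/- and 10.37, 10.05 and 10.36 in Sfpq-/- cortex. The Sfpq-/- arrays lay above the other 6, while controls and Sfpq+/- overlapped, and the level was 1.44-fold higher in Sfpq-/- than in controls (log2 change 0.52, SE 0.12, adjusted p = 0.0161). The call ended without control 1, control 2 or Sfpq-/- 1 (adjusted p = 0.0578, 0.0559 and 0.0763), and with no filter on dim probe sets (adjusted p = 0.0720).

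Ptpn14 encodes a non-receptor tyrosine phosphatase that restrains the growth regulator Yap. It was at 7.84, 7.99 and 7.96 in controls, 7.89, 7.90 and 8.13 in Sfpq+/- and 8.27, 8.40 and 8.27 in Sfpq-/- cortex. The Sfpq-/- arrays lay above the other 6, and the rise was 0.39 (SE 0.09, adjusted p = 0.0147). The call ended without control 1 (adjusted p = 0.0576) and when the gene level was the median probe set (adjusted p = 0.133). Gadd45a, a stress-induced gene of growth arrest and repair, was at 7.70, 7.77 and 7.51 in controls, 7.51, 7.61 and 7.47 in Sfpq+/- and 7.83, 8.17 and 8.04 in Sfpq-/- cortex. The Sfpq-/- arrays lay above the other 6, but Sfpq-/- 1 was only just above control 2. The change was 0.35 (SE 0.10, adjusted p = 0.0460), and the call ended without control 1, 2 or 3 or Sfpq-/- 2 or 3 (adjusted p = 0.0804, 0.0628, 0.161, 0.131 and 0.0774). It also ended without any 1 of the Sfpq+/- arrays, which enter the shared spread (adjusted p from 0.0644 to 0.0689). Of the 9 alternatives that kept all arrays, 5 ended it, and with the median of its probe sets the change was 0.11 (adjusted p = 0.683).

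Rprm, the gene of the p53-dependent G2 arrest mediator reprimo, went the other way. It was at 11.10, 11.19 and 11.24 in controls, 11.08, 11.20 and 11.18 in Sfpq+/- and 10.64, 10.68 and 10.81 in Sfpq-/- cortex. Each Sfpq-/- array lay below each of the other 6, and the level fell by 0.46 on the log2 scale (SE 0.08, adjusted p = 0.00223). All 9 of its probe sets had lower means in Sfpq-/- than in control cortex. The call held in all 6 fits that left out 1 control or Sfpq-/- array and under the 9 other alternatives. The other 2 genes of this role did not pass: the antiproliferative gene Btg2 differed by -0.04 (adjusted p = 0.831) and the polo-like kinase gene Plk2 by 0.09 (adjusted p = 0.592).

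**Figure D2:**
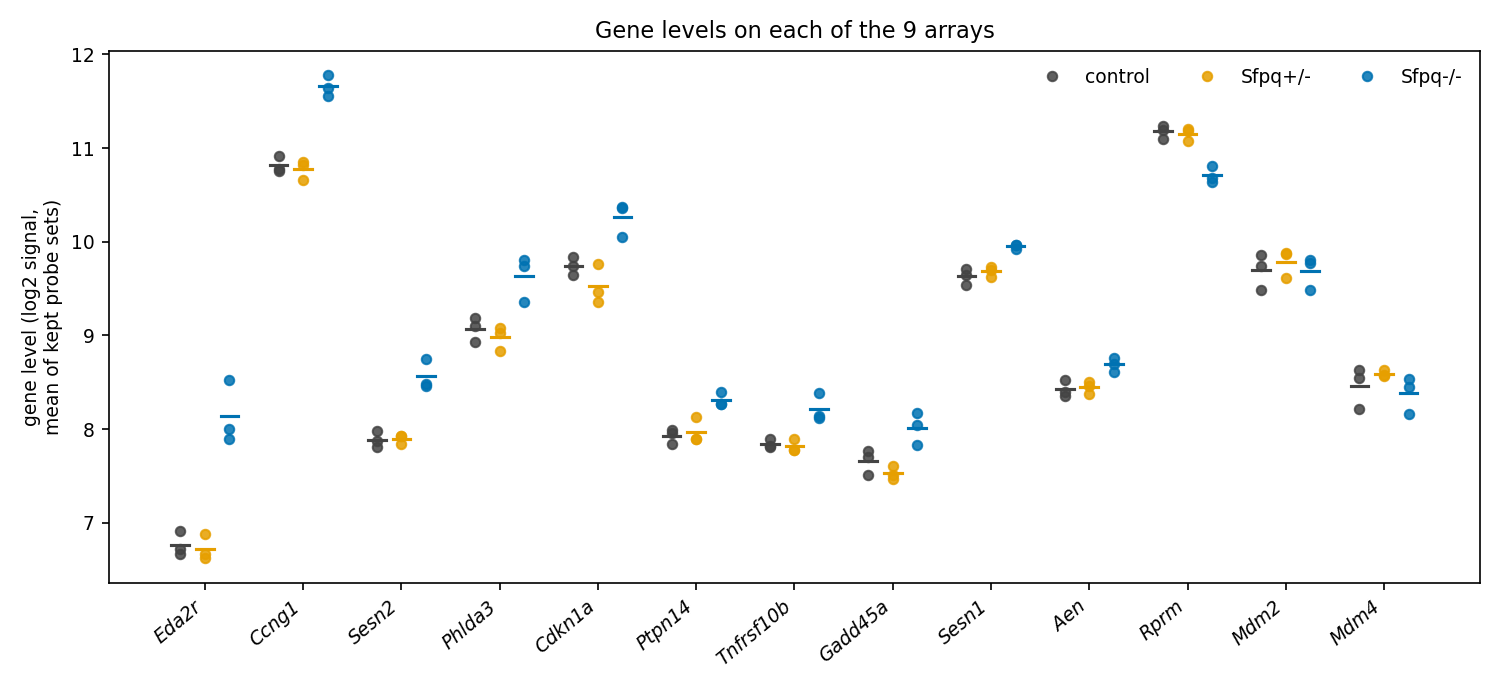
Gene level (y axis, log2 signal, mean of the kept probe sets of a gene) on each of the 9 arrays for the 11 members that passed in Sfpq-/- against control and for Mdm2 and Mdm4 (x axis), with short bars at group means. The Sfpq-/- points stand apart from the control and Sfpq+/- points for Eda2r, Ccng1, Sesn2 and Rprm, and by smaller gaps for the other members that passed. They overlap both groups for Mdm2. For Mdm4 they overlap the control points and lie below the Sfpq+/- points. Levels are not comparable between genes.

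Among 11 genes of death receptors and cell death, 4 rose and none fell. Eda2r encodes a receptor of the tumour necrosis factor receptor family for ectodysplasin A2, and lies on the X chromosome. It was at 6.91, 6.72 and 6.67 in controls, 6.62, 6.88 and 6.67 in Sfpq+/- and 8.52, 7.89 and 8.0 in Sfpq-/- cortex. Every Sfpq-/- array stood well above every other array, and Sfpq-/- 1 was highest. The rise was 1.37 (SE 0.15, 95% interval 1.04 to 1.70, adjusted p = 0.000121), and no other member rose as much. Since Xist differed between arrays and Eda2r is X-linked, the arrays were also compared at like Xist levels. Among the arrays high in Xist the values were 6.91 and 6.72 in controls and 8.52 in Sfpq-/-. Among those low in Xist they were 6.67 in control 3 and 7.89 and 8.0 in Sfpq-/-. The first set holds 1 Sfpq-/- array and the second 1 control, and no test was made within either set. With the Xist level as a covariate the change was 1.5 (adjusted p = 3.73e-05).

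Tnfrsf10b, the mouse gene of the TRAIL death receptor, was at 7.81, 7.90 and 7.82 in controls, 7.78, 7.78 and 7.90 in Sfpq+/- and 8.39, 8.14 and 8.12 in Sfpq-/- cortex. Controls and Sfpq+/- overlapped, the Sfpq-/- arrays lay above both, and Sfpq-/- 1 was the highest. The rise was 0.37 (SE 0.09, adjusted p = 0.0178), and the call ended without control 1, control 3 or Sfpq-/- 1 (adjusted p = 0.0580, 0.0592 and 0.0774). Phlda3 encodes a pleckstrin homology domain protein that inhibits Akt. It was at 8.93, 9.19 and 9.10 in controls, 8.83, 9.03 and 9.08 in Sfpq+/- and 9.80, 9.36 and 9.74 in Sfpq-/- cortex, where array 2 lay nearest to the controls. The rise was 0.56 (SE 0.12, adjusted p = 0.0125), and the call ended without Sfpq-/- 1 (adjusted p = 0.0630).

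Aen, which encodes an exonuclease that takes part in apoptosis, was at 8.35, 8.52 and 8.40 in controls, 8.50, 8.46 and 8.38 in Sfpq+/- and 8.70, 8.61 and 8.76 in Sfpq-/- cortex. Controls and Sfpq+/- overlapped, and the Sfpq-/- arrays lay above both, but the gap to control 2 was small. The change of 0.27 (SE 0.08, adjusted p = 0.0487) lay close to the threshold. The call ended without control 1, 2 or 3 (adjusted p = 0.149, 0.0588 and 0.132), without Sfpq-/- 1 or 3 (adjusted p = 0.146 and 0.0931), without any 1 Sfpq+/- array (adjusted p from 0.0669 to 0.0782), and with the replicate number as a block (adjusted p = 0.0560). It ended in 7 of the 9 alternatives that kept all arrays, with an adjusted p of up to 0.354. The 7 genes of this role that did not pass included the death receptor gene Fas (-0.08, adjusted p = 0.788), of whose 13 probe sets 4 were above the limit, and the apoptosome gene Apaf1 (0.15, adjusted p = 0.320). The tetraspan protein gene Perp differed by 0.08, the RNA-binding protein gene Zmat3 by 0.15, the autophagy regulators Trp53inp1 and Dram1 by 0.03 and -0.05, and Ei24 by 0.17. All 3 Sfpq-/- arrays of Ei24 lay above all 3 control arrays (adjusted p = 0.223), which is so for 16.1% of all genes. Over the members, 12 had no overlap with higher and 1 with lower Sfpq-/- arrays, and 10.8% of all genes had no overlap with lower ones.

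Among stress and metabolic genes, both sestrin genes of the member list rose. Sesn3, a sestrin gene outside the members, differed by 0.10 and was not called (adjusted p = 0.57). The sestrins are stress-induced proteins that lower mTORC1 signalling. Sesn2 was at 7.81, 7.98 and 7.87 in controls, 7.84, 7.93 and 7.93 in Sfpq+/- and 8.75, 8.48 and 8.46 in Sfpq-/- cortex. The Sfpq-/- arrays stood clear of all others, and the rise was 0.67 (SE 0.09, 1.60-fold, adjusted p = 0.000557). Sesn1 was at 9.54, 9.65 and 9.71 in controls, 9.62, 9.70 and 9.73 in Sfpq+/- and 9.92, 9.97 and 9.97 in Sfpq-/- cortex. These 3 arrays agreed closely and lay above the other 6, with a rise of 0.32 (SE 0.07, adjusted p = 0.0147). The call ended without control 1 or control 2 (adjusted p = 0.0608 and 0.0529), and the change was 0.62 with the median of probe sets. The epoxide hydrolase gene Ephx1 differed by 0.20 (adjusted p = 0.225), with no overlap between Sfpq-/- and control arrays, and the iron reductase gene Steap3 by 0.01 (adjusted p = 0.959).

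The 4 tested members among the inhibitors and cofactors of p53 did not pass. Mdm2 was at 9.86, 9.74 and 9.49 in controls, 9.88, 9.87 and 9.61 in Sfpq+/- and 9.77, 9.81 and 9.49 in Sfpq-/- cortex. The 3 groups overlapped, and the difference between Sfpq-/- and controls was -0.01 (adjusted p = 0.986) with a 95% interval from -0.28 to 0.27. Its 18 probe sets differed by -0.31 to 0.16, 7 of them higher and 11 lower. Mdm4 was at 8.63, 8.55 and 8.21 in controls, 8.63, 8.58 and 8.57 in Sfpq+/- and 8.45, 8.54 and 8.16 in Sfpq-/- cortex, a difference of -0.08 (95% interval -0.36 to 0.19, adjusted p = 0.756). For both genes array 3 was the lowest in controls and in Sfpq-/-. Ppm1d, the phosphatase Wip1 that turns p53 signalling off, differed by 0.05 (95% interval -0.13 to 0.22), and Pml, the organiser of nuclear bodies, by -0.07 (95% interval -0.28 to 0.14).

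The 4 DNA repair members did not pass either. The translesion polymerase gene Polk differed by 0.23 (adjusted p = 0.516), with array values of 7.86, 7.85 and 7.13 in Sfpq-/-, the third of which lay below all controls. Without Sfpq-/- 3 the change of Polk was 0.47 and passed (adjusted p = 0.0333). The nucleotide excision repair genes Xpc and Ddb2 differed by 0.05 and -0.07, and the ribonucleotide reductase subunit gene Rrm2b, which supplies nucleotides for repair, by -0.08 (95% interval -0.39 to 0.22).

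The probe sets of each member showed how evenly they shared a change, but their order along the gene was not examined. Of 448 member probe sets above the limit, 31 were called higher and 0 lower. Over all 628415 probe sets tested, 0.561% were called higher and 1.19% lower. Only 248590 of these belonged to tested genes, and the share over those alone was not taken. In Eda2r all 12 kept probe sets were higher in Sfpq-/-, 8 of them called, with changes from 0.27 to 2.11. In Ccng1, 9 of 10 were higher and 8 called, and in Sesn2, 15 of 17 were higher and 7 called. Ptpn14 had 43 of 45 higher with 4 called, and its changes ran unevenly from -0.38 to 0.97. Phlda3, Cdkn1a, Sesn1 and Aen had 1 called probe set each, and Tnfrsf10b and Gadd45a had none. In Aen the called one (0.94) stood above the others, whose changes ran from -0.34 to 0.56. Ei24 had all 17 probe sets higher, by 0.01 to 0.40, with none called.

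**Figure D3:**
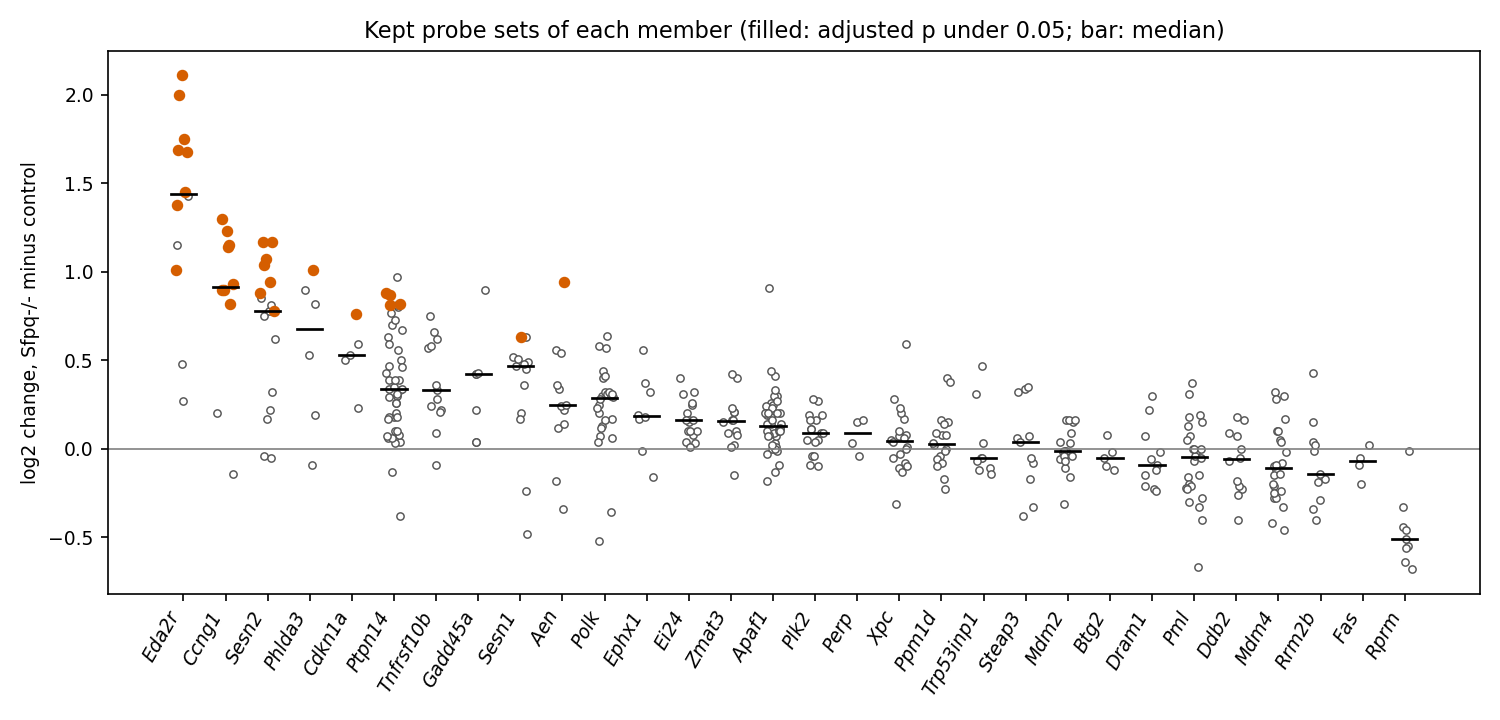
Log2 change between Sfpq-/- and control (y axis) of each kept probe set, by member (x axis, in order of the gene's change), with bars at the median. Filled points passed an adjusted p of 0.05 and lie in 8 members, all higher; the probe sets of Eda2r run from 0.27 to 2.11 and those of Mdm2 from -0.31 to 0.16.

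In Sfpq+/- against control cortex none of the 30 members was called by limma, as for all 16854 genes (0.0% called). The members' changes ran from -0.21 for Cdkn1a to 0.20 for Plk2, with 95% intervals between -0.48 and 0.49. At an unadjusted p under 0.05, 1 member, Plk2, and 715 genes were found. All 3 Sfpq+/- arrays of Plk2 lay above the controls (9.29, 9.22 and 9.21 against 9.06, 8.90 and 9.15), which is so for 8.52% of all genes. No member had all 3 Sfpq+/- arrays below the controls, beside 3.99% of genes.

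Sfpq-/- was also set against Sfpq+/- cortex, a comparison that shares the Sfpq-/- arrays with the first. Here 9 members were higher and 1 lower, where 4.58% of genes were called higher and 7.25% lower. The arrays did not overlap in 10 members with higher and 4 with lower Sfpq-/- arrays, beside 13.2% and 13.6% of all genes. Cdkn1a differed by 0.74 (SE 0.12, 1.66-fold, adjusted p = 0.00186), beside 0.52 against controls, and Gadd45a by 0.49 (adjusted p = 0.00863), beside 0.35. Eda2r differed by 1.41 (adjusted p = 9.07e-05), Ccng1 by 0.88 (adjusted p = 6.99e-05), Sesn2 by 0.66 (adjusted p = 0.000565), Phlda3 by 0.65 (adjusted p = 0.00485) and Rprm by -0.44 (adjusted p = 0.00286). These 7 calls held in all 6 fits that left out 1 array of either group. Tnfrsf10b (0.39, adjusted p = 0.0123) lost its call in 3 of those fits, Ptpn14 (0.34, adjusted p = 0.0273) in 4 and Sesn1 (0.27, adjusted p = 0.0335) in all 6, and Aen (0.25, adjusted p = 0.0695) was not called. For Tnfrsf10b those were the fits without Sfpq+/- 1, Sfpq+/- 2 or Sfpq-/- 1 (adjusted p = 0.0556, 0.0562 and 0.0548), and for Ptpn14 those without Sfpq+/- 1 or 2 or Sfpq-/- 1 or 2 (adjusted p = 0.119, 0.114, 0.0647 and 0.0696). For Sesn1 the adjusted p without 1 array of either group or without control 2 was between 0.0603 and 0.137. With the median of probe sets the calls of Tnfrsf10b and Ptpn14 ended (adjusted p = 0.0793 and 0.178), and in the 2-group fit those of Ptpn14 and Sesn1 did (adjusted p = 0.0518 and 0.0589). That of Sesn1 also ended with no filter on dim probe sets and with a minimum of 1 kept probe set (adjusted p = 0.0522 and 0.0508). Aen passed with the stricter filter and without Sfpq-/- 2 (adjusted p = 0.0473 and 0.0458).

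The count of members against controls leaned on single arrays. It was 5 without control 1, 7 without control 2 and 7 without Sfpq-/- 1, in place of 11, and Eda2r, Ccng1, Sesn2 and Rprm passed in each of the 6 fits that left out 1 control or Sfpq-/- array. The mean difference of the 10 higher members from the control mean was 0.66, 0.48 and 0.56 on Sfpq-/- arrays 1 to 3 and between -0.12 and 0.06 on the other 6. Sfpq-/- 1, the Sfpq-/- array high in Xist, was the highest of its group in 6 of the 10. With the Xist level as a covariate 8 members rose and Rprm fell, while Aen and Gadd45a were not called (adjusted p = 0.0744 and 0.0858).

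The members spanned 1.5 to 148.5 kb from first to last annotated base (RefSeq, GRCm38.p6). The one longer than 100 kb, Ptpn14, was among those that rose.

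Further lists, also chosen with earlier results of these data known, cover the wider pathway. Of 18 regulators and relatives of p53, 17 were tested, 2 rose and none fell, with a median change of 0.05. The 2 were Trp53bp1 (0.36, SE 0.09, adjusted p = 0.0303), the DNA break repair factor 53BP1, and Trp53bp2 (0.26, SE 0.07, adjusted p = 0.0306), the p53-binding protein ASPP2. Against Sfpq+/- neither was called (0.15, adjusted p = 0.398, and 0.17, adjusted p = 0.167). The damage kinase genes Atm (0.05), Atr (-0.05), Chek1 (-0.02) and Chek2 (0.09) did not pass. Of 32 other known p53 targets, 28 were tested, 3 rose and none fell, with a median of 0.11, a called share of 10.7% beside the 5.98% of all genes. Zfp365 rose from levels of 7.29, 7.43 and 7.38 in controls to 8.15, 7.79 and 7.78 in Sfpq-/- cortex (0.54, SE 0.11, adjusted p = 0.00682). Polh, the translesion polymerase eta gene, rose by 0.40 (adjusted p = 0.0324) and the lipase gene Abhd4 by 0.33 (adjusted p = 0.0342). Against Sfpq+/-, 5 of the 28 were called higher and 0 lower, where 4.58% of all genes were called higher. Zfp365 and Abhd4 were among the 5 (0.54, adjusted p = 0.00626, and 0.30, adjusted p = 0.0479) and Polh was not (0.28, adjusted p = 0.138). The proapoptotic gene Bbc3, which encodes Puma, differed from controls by 0.33 (adjusted p = 0.0612) and from Sfpq+/- by 0.41 (adjusted p = 0.0215). Pmaip1, another proapoptotic gene of this list, was called in neither comparison (0.11, adjusted p = 0.639, and 0.28, adjusted p = 0.141).

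Of 18 cell cycle genes that p21 is known to lower through the DREAM repressor complex, 17 were tested, 5 fell and none rose in Sfpq-/- against control cortex, and all 17 had lower means (median -0.26). Over all 16854 genes, 6.12% were called lower, and 9567 had a higher mean in Sfpq-/- than in controls. Of the 5 that fell, Aurkb (-0.39, adjusted p = 0.00340), Plk1 (-0.35, adjusted p = 0.00892) and Aurka (-0.46, adjusted p = 0.0147) encode mitotic kinases. The others were the cyclin gene Ccnb2 (-0.32, adjusted p = 0.0173) and the transcription factor gene Foxm1 (-0.33, adjusted p = 0.0355). These genes mark dividing cells in general, so fewer dividing cells and lower expression in each cannot be told apart.

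**Figure D4:**
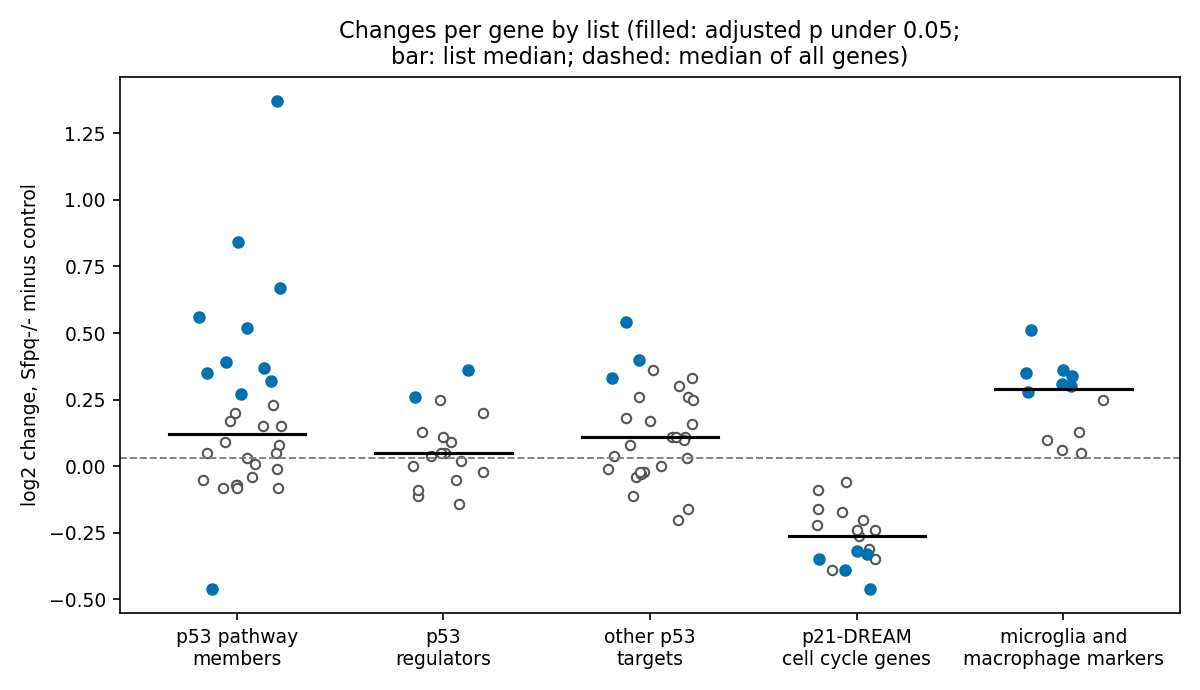
Log2 change between Sfpq-/- and control (y axis) of each tested gene in 5 lists (x axis), with bars at the list medians and a dashed line at the median of all genes (0.03). Filled points passed an adjusted p of 0.05: 10 higher and 1 lower member, 2 regulators, 3 other targets, 5 cell cycle genes, all lower, and 7 microglial markers.

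Markers of microglia and macrophages, the brain's resident phagocytes, differed between the same groups. Of 12 measured, 7 rose and none fell in Sfpq-/- against control cortex, where 5.98% of all genes were called higher. Among them were the lysosomal gene Cd68 (0.51, adjusted p = 0.00492) and the adaptor gene Tyrobp (0.36, adjusted p = 0.0157). Against Sfpq+/- only 2 of the 12 were called, Cd68 (0.37, adjusted p = 0.027) and C1qb (0.37, adjusted p = 0.0117), both higher. The summed linear signal of the 12 markers was between 2634 and 2734 in controls, 2631 and 2878 in Sfpq+/- and 3205 and 3314 in Sfpq-/- cortex. Gene levels used only probe sets above the limit for dim signal, so they do not show whether a marker was detected. The part of these markers in the rise of the p53 targets was not tested. The cortex markers summed to between 16266 and 16701 in controls, 17287 and 18096 in Sfpq+/- and 14904 and 15600 in Sfpq-/-. Of these 9 markers, 3 fell against controls, where 6.12% of all genes were called lower. Of the other lists, the endothelial and pericyte, the ganglionic eminence and the dorsal midline markers had 1 gene each that rose, and none of the 5 erythroid and 8 meningeal markers passed. The summed signals of these 5 lists overlapped between Sfpq-/- and controls.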

How the data were processed

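Total RNA from embryonic day 13.5 cerebral cortex was hybridised to Affymetrix mouse exon arrays, 9 in all, grouped by the titles. The extraction note names Sfpq+/- in both knock-out places and Sfpq-/- in none, so it does not bear out the titles. The authors deposited 1 log2 value per probe set and array. The submitters' processing notes name Affymetrix Expression Console 1.2.0.20. That the scale is log2 was read from the values. How background was corrected and arrays were normalized and summarised is not stated by those notes or the labels. Of 1256831 probe sets, 318760 (25.4%) had 1 gene symbol in the platform annotation, 6684 had several and were not used, and 931387 had none there. Old symbols were updated through unique RefSeq synonyms; Dram1 was found that way.

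Probe sets with a mean over all 9 arrays above the median (5.64) were kept, 628415 in all. Genes with 3 or more of these were tested, 16854 in all, each at its mean over kept probe sets. All arrays entered 1 model with 3 group means in limma 3.58.1 (R 4.3.3), with Benjamini-Hochberg adjustment over all genes and a threshold of 0.05. The number of arrays limits the precision: the median standard error of a difference was 0.096. Tests were checked on simulated data. The members and lists were chosen with earlier results of these data known. Members that passed in Sfpq-/- and Mdm2, Mdm4 and Cdkn1a are given on every array. In other lists, those that passed or had the smallest adjusted p are given. Atm, Atr, Chek1, Chek2, Bbc3, Pmaip1, Sesn3, Emx1 and Lhx2 were named outside these rules after their values were seen. Alternatives were other filters on dim probe sets, the median of probe sets, a minimum of 1 kept probe set per gene, quantile normalization, 2-group fits, a replicate block, a variance trend, the Xist level as a covariate, and leaving out each array.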

Additional observations from a re-analysis of the deposited data

How the results depend on the processing

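With 3 arrays a group, calls near the threshold depend on single arrays. Under the 9 alternatives that kept all arrays, 8 to 11 members were called against controls and 8 to 11 against Sfpq+/-, and no called member changed sign in any alternative. Leaving out 1 array gave 5 to 10 members against controls, 7 to 10 against Sfpq+/- and 0 against controls for Sfpq+/-. Genes called then ran from 1311 to 2453 for Sfpq-/- against control, 0 to 1 for Sfpq+/- against control and 1397 to 2267 for Sfpq-/- against Sfpq+/-, and probe sets from 5594 to 9077. With the stricter filter 1 gene was called in Sfpq+/-. In place of 11007, probe sets called were 7161 with no filter, 5837 in the 2-group fit and 17658 with a variance trend; the cause was not tested.

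The titles give the groups the same replicate numbers. The labels do not call these numbers pairs, and they were not taken as pairs. Deviations of same-numbered Sfpq-/- and control arrays correlated at 0.28, 0.01 and 0.57. Between Sfpq+/- and controls the values were 0.25, 0.05 and 0.31, and between Sfpq-/- and Sfpq+/- they were -0.06, 0.04 and 0.3. Arrays of different numbers were not compared, so these values do not settle whether same-numbered arrays belong together. With the replicate number as a block 2469 genes and 10 members were called in Sfpq-/- against control (2040 and 11 without), 2367 and 10 against Sfpq+/-, 0 and 0 in Sfpq+/- against control, and 10756 probe sets.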
